A study of Homo sapiens with 6 samples.

Results

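Translation of a cellular mRNA is started by the eukaryotic initiation factors (eIFs) and carried forward by the elongation factors (eEFs). eIF2 brings the initiator methionyl-tRNA to the small ribosomal subunit and is recharged with GTP by eIF2B, eIF3 forms a scaffold on that subunit, and eIF4F binds the mRNA cap and unwinds the leader. Plasma cells and the myelomas that derive from them secrete large amounts of immunoglobulin and so draw heavily on this machinery. The genes described here are 47 named factors: 40 for initiation (EIF1 to EIF6) and 7 for elongation. They were taken by gene symbol from a table of 60728 genes, without pseudogenes, and all 47 were found, each under 1 identifier.

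RNA-seq measured fragments per gene in JJN3, a human multiple myeloma cell line that the labels give as wild type. The 3 groups, each of 2 libraries, were the DMSO vehicle control, 2 h of WNK463 and 6 h of WNK463. This compound inhibits the WNK kinases, which control cation-chloride cotransport. The labels disagree on its dose, with 5 µM in the protocol of the samples but 1 µM in the design of the whole series. No label gives the DMSO cells a time in culture, so time and treatment cannot be told apart. The labels do not say that the 2 libraries of a group came from separate cultures. The p-values therefore cover the spread between these libraries alone, and a single cell line limits what the groups stand for.

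Libraries held 18013790 to 24002291 assigned fragments. All 7 plasma cell markers were present (27.7 to 716 CPM, a count as a share of its library after scaling with TMM factors), against summed levels of at most 0.597 CPM for 4 T cell markers, 0.764 CPM for 4 erythroid markers and 2.06 CPM for 4 myeloid markers. The B cell factor gene PAX5 reached 4.29 CPM. The spread between replicates exceeded counting error in each group (chi-square per degree of freedom 8.85 in DMSO, 4.19 at 2 h and 3.59 at 6 h), with the widest gap between the DMSO libraries. Mitochondrially encoded genes took 4.43% of the fragments of DMSO replicate 1 and 4.96% to 5.24% of the other 5 libraries. CPM are shares of a library, so a change in the total RNA of a cell is not visible in them. In bulk RNA, fewer cells with a transcript and less of it per cell cannot be told apart.

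The factor genes together took 2.91% and 2.93% of the fragments in DMSO, 3.07% and 3.06% at 2 h, and 2.93% in both 6 h libraries. EEF1A1, which delivers aminoacyl-tRNA to the ribosome, alone made up 46.9% and 47.9% of these in DMSO, 50% in each library at 2 h, and 53% and 52.9% at 6 h. Scaled by exon length (TPM, the share of transcripts after division by exon length), its level over all 6 libraries averaged 9900 TPM, followed by the translocation factor EEF2 with 2283 TPM and EEF1B2, a subunit of the exchange factor of eEF1A, with 1215 TPM. Among the initiation factors that the counts measure, EIF4H (708 TPM) and EIF4G2 (601 TPM) were highest. EIF4A1, EIF3C and EEF1G lost fragments in counting, as described below, so their part in these shares and ranks is not known. The cap-binding protein gene EIF4E, with 22 TPM, stood below its scaffold EIF4G1 (410 TPM) and below its inhibitors EIF4EBP1 (429 TPM) and EIF4EBP2 (106 TPM). TPM rests on the annotated exon length, 14067 bases for EIF4E and 880 bases for EIF4EBP1, and without that scaling these 2 genes were closer. EIF4E and EIF4EBP1 averaged 85.2 and 122 CPM in DMSO, 95.6 and 111 CPM at 2 h, and 74.8 and 78.7 CPM at 6 h.

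**Figure D1:**
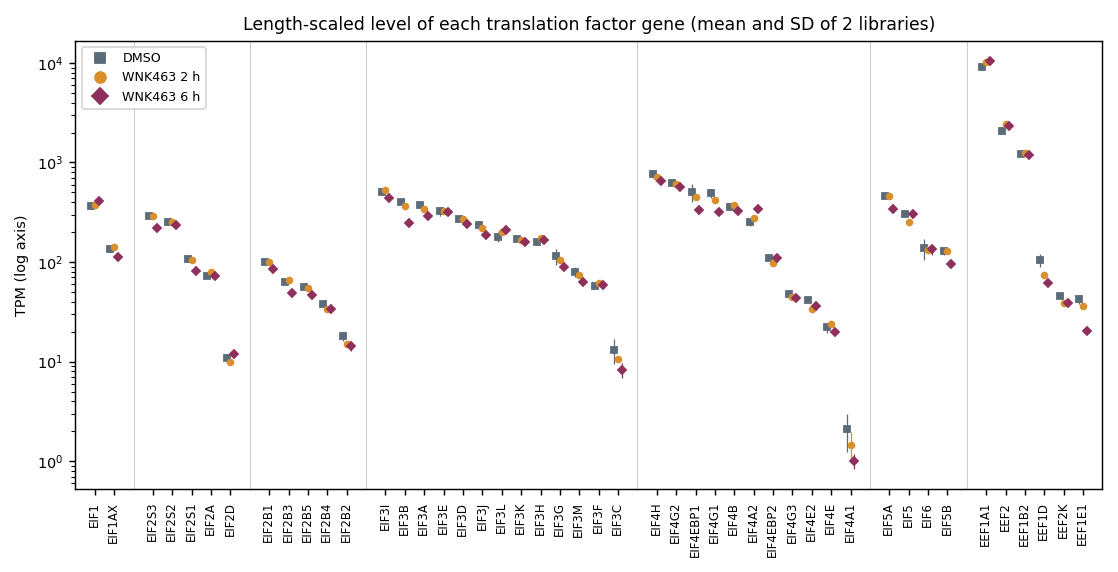
Level of 46 factor genes in TPM (log axis), grouped by complex and sorted by the DMSO level, with EEF1G at 0 left out. Symbols are means and bars SDs of 2 libraries for DMSO, WNK463 2 h and WNK463 6 h. EEF1A1 lies above all others. EIF4A1 lies lowest, but its counts do not measure its mRNA.

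The counts of 3 factor genes do not measure their mRNA. Fragments that overlap exons of more than 1 gene, or that align to several places, were left unassigned. EEF1G, the gamma subunit of the eEF1B exchange factor, shares 99.7% of its exon length with the overlapping gene ENSG00000255508 and had 0 counts in all 6 libraries. EIF4A1, the main helicase of eIF4F, shares 48.6% of its exon length with other genes (41.1% of the exon length with ENSG00000264772) and had 25 to 85 counts a library. EIF3C has the near-identical copy EIF3CL and reached 259 to 542 counts. Of the 47, 30 overlap another gene in at least 1 exonic base and 14 share at least 10% of their exon length, among them EIF3L (51.8%), EEF1D (34%), EIF2B2 (23.6%), EEF1E1 (18.8%) and EIF4A2 (17.9%). Counting ignored strand, so fragments in regions shared with antisense genes, as in most of the shared part of EEF1D, cannot be given to either. Pseudogene entries named after EEF1A1, 49 of them, together held 0.513% as many counts as the gene itself.

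Of the 46 factor genes that passed the filter on low counts, 27 were lower and 4 higher at 6 h than in DMSO, and 15 were not called. A call is an adjusted p under 0.05 in the quasi-likelihood test of edgeR, with Benjamini-Hochberg adjustment over 15548 genes. The called genes made up 67.4% of the factor genes tested, where 36.6% of all tested genes were called. A small change is called more readily at high counts (SE 0.033 for EEF1A1, 0.147 for EEF1E1), and these shares were not matched for level. The lower genes were 58.7% of the factor genes, where 18.6% of all tested genes were called lower, and the higher ones 8.7%, where 18% of all genes were called higher. These shares of all genes also apply to the 6 h counts by complex given below. The median log2 change was -0.24 for the factor genes and 0.00 for all genes. Most of the changes were small: 7 of the 31 reached an absolute log2 change of 0.5, those of EIF3B, EIF3C, EIF4A1, EIF4EBP1, EIF4G1, EEF1D and EEF1E1. Without the poorly measured EIF3C and EIF4A1, 25 were lower and 4 higher.

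At 2 h, 5 factor genes were higher and 3 lower than in DMSO, 17.4% of 46, where 17% of all tested genes were called (8.68% higher and 8.32% lower). With all 6 libraries and without matching for level, the factor genes were thus called about as often as genes in general. The number of factor genes called at 2 h moved when single libraries were left out, most without DMSO replicate 2, as given in the last section. Scaled by library size without TMM factors, 3 factor genes were higher and 4 lower at 2 h. Between 6 h and 2 h, 29 were lower (63% of the factor genes, 13.1% of all genes) and 2 higher (4.35%, against 11.1% of all genes). Without TMM factors the calls over all genes in that comparison were 2409 higher and 1523 lower, against 1731 and 2041 with TMM factors, and the factor genes were 2 higher and 21 lower. The comparisons with DMSO share the DMSO libraries, and the direct comparison of 6 h with 2 h tests the difference between the 2 sets of WNK463 libraries.

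**Figure D2:**
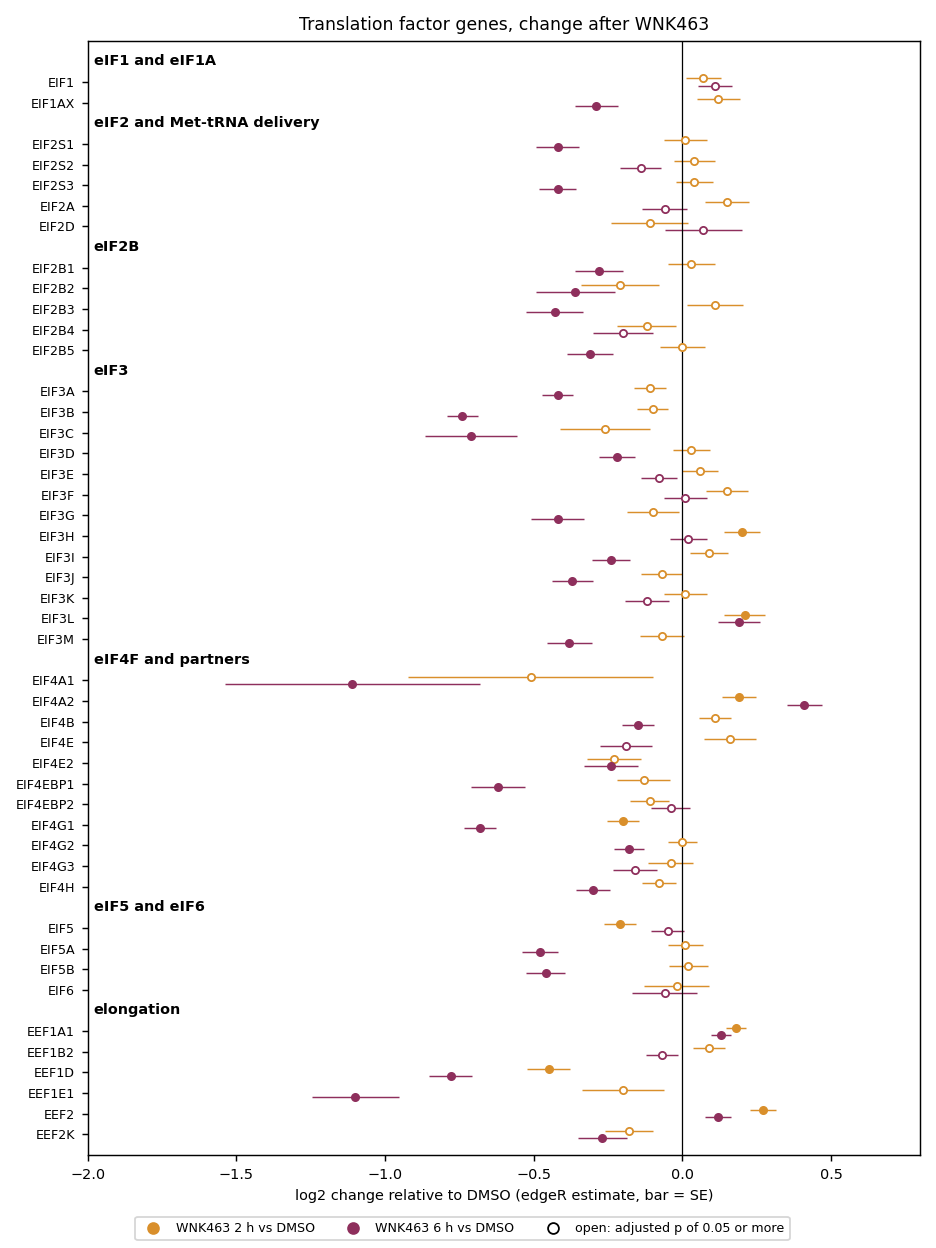
Log2 change of 46 factor genes relative to DMSO at 2 h (orange) and 6 h (purple), by complex, with the SE of the edgeR estimate; filled symbols have an adjusted p under 0.05. Most 2 h symbols lie near 0, while 27 of the 6 h symbols are filled and left of 0 and 4 are filled and right of it.

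EIF1 and EIF1AX encode the small factors that keep the scanning ribosome open until it meets a start codon. EIF1 had 359 and 369 CPM in DMSO, 390 and 376 at 2 h and 389 and 399 at 6 h, and its difference between 6 h and DMSO was not called (log2 change 0.11 ± 0.058 SE, adjusted p = 0.125). EIF1AX had 156 and 169 CPM in DMSO, 172 and 180 at 2 h and 139 and 127 at 6 h. It fell at 6 h by 0.29 on the log2 scale (SE 0.072, adjusted p = 0.00141), and all other libraries lay above both 6 h libraries. Without 6 h replicate 2 that call was lost (-0.22).

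Of the 5 genes of eIF2 and of initiator tRNA delivery, 2 were lower at 6 h than in DMSO, 3 were not called and none rose. EIF2S1 encodes the alpha subunit, whose phosphorylation by stress kinases stops eIF2 from being recharged. It had 155 and 168 CPM in DMSO, 161 and 164 at 2 h and 119 and 122 at 6 h. The 6 h libraries lay below all others (6 h against DMSO, -0.42 ± 0.072 SE, adjusted p = 5.45e-06). EIF2S3, the gamma subunit that holds GTP and the tRNA, had 313 and 335 CPM in DMSO, 328 and 341 at 2 h and 235 and 250 at 6 h (-0.42 ± 0.062, adjusted p = 3.55e-07). The beta subunit gene EIF2S2 moved less, with -0.14 against DMSO (adjusted p = 0.108). EIF2A and EIF2D, which can deliver initiator tRNA without eIF2, were not called against DMSO (-0.06 and 0.07). At 2 h 0 genes of this set were called against DMSO in edgeR, DESeq2 or limma, with 1 at an unadjusted p under 0.05 in edgeR, and their log2 changes ran from -0.11 to 0.15.

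eIF2B, the exchange factor of eIF2, had 4 of its 5 subunit genes lower at 6 h than in DMSO. At 2 h 0 were called in edgeR, DESeq2 or limma, and 0 had an unadjusted p under 0.05 in edgeR. The catalytic subunit gene EIF2B5 had 111 and 112 CPM in DMSO, 108 and 114 at 2 h and 89.3 and 89.9 at 6 h, so both 6 h libraries were below the other 4 (-0.31 ± 0.078, adjusted p = 0.00124). EIF2B3, the other subunit of the catalytic subcomplex, had 60.5 and 58.4 CPM in DMSO, 63 and 65.4 at 2 h and 45.7 and 42.3 at 6 h. It fell at 6 h relative to DMSO (-0.43 ± 0.097, adjusted p = 0.000309) and relative to 2 h (-0.54 ± 0.096, adjusted p = 1.93e-05). Of the regulatory subunits EIF2B1 (-0.28) and EIF2B2 (-0.36) fell at 6 h, and EIF2B4 (-0.20) was not called. The call of EIF2B1 was lost without 6 h replicate 1 (-0.26). That of EIF2B2 was lost without DMSO replicate 1 (-0.26) or 6 h replicate 1 (-0.24). It was also lost in DESeq2 and without the filter on low counts. At 6 h DESeq2 called 3 of the 5 eIF2B genes against DMSO and limma 4.

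eIF3 is the largest initiation factor. At 6 h 8 of its 13 subunit genes were lower than in DMSO, 1 was higher and 4 were not called. The 8 include EIF3C, whose counts are poorly measured. EIF3B, a core scaffold subunit, had 1045 and 966 CPM in DMSO, 941 and 930 at 2 h and 589 and 616 at 6 h. It averaged 249 ± 5.77 TPM at 6 h and 405 ± 25.2 TPM in DMSO (SD, n = 2 each), a log2 change of -0.74 ± 0.053 (adjusted p = 1.05e-15), and the groups did not overlap. EIF3A, the other large core subunit, had 737 and 726 CPM in DMSO, 678 in each library at 2 h and 552 and 539 at 6 h (-0.42 ± 0.053, adjusted p = 8.94e-09). EIF3G, EIF3J and EIF3M also fell at 6 h (-0.42, -0.37 and -0.38), as did EIF3I and EIF3D (-0.24 and -0.22), and these last 2 calls were lost without 6 h replicate 1 (-0.22 and -0.21).

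The other 5 subunit genes were not lower at 6 h by this test. EIF3E (-0.08), EIF3F (0.01), EIF3H (0.02) and EIF3K (-0.12) were not called at 6 h. EIF3H had 264 and 293 CPM in DMSO, 317 and 321 at 2 h and 283 in each library at 6 h, and it was called higher at 2 h (0.20 ± 0.062, adjusted p = 0.0226). EIF3L rose at both times (0.21 at 2 h and 0.19 at 6 h), with 193 and 231 CPM in DMSO, 242 and 247 at 2 h and 243 and 240 at 6 h. Without DMSO replicate 1, the lowest of the 6 libraries for EIF3L and EIF3H, none of these 3 calls held (EIF3L 0.09 at 2 h and 0.06 at 6 h, EIF3H 0.12 at 2 h). The 2 h calls of both genes were also lost without either 2 h library (0.19 to 0.22) or either 6 h library (0.20 to 0.21), and the 6 h call of EIF3L without 6 h replicate 1 (0.18) or 6 h replicate 2 (0.20). In length-scaled level the measured subunits also differed within DMSO cells, with 505 ± 17 TPM for EIF3I and 57.2 ± 2.58 TPM for EIF3F (SD, n = 2). EIF3C, whose counts are poorly measured, had 30 and 20.3 CPM in DMSO, 22 and 20.1 at 2 h and 13.3 and 17.4 at 6 h (-0.71 ± 0.155, adjusted p = 0.000259), a call that was lost without DMSO replicate 1 (-0.41).

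Among eIF4F and its partners 7 of 11 genes were lower at 6 h than in DMSO and 1, EIF4A2, was higher. The 7 include EIF4A1, whose counts do not measure its mRNA. They also include EIF4E2 and EIF4B, whose calls were lost under several alternatives described below. EIF4G1, the scaffold that joins the cap-binding protein, the helicase and eIF3, had 1194 and 1046 CPM in DMSO, 989 and 968 at 2 h and 696 and 700 at 6 h. It was lower at 2 h (-0.20 ± 0.054, adjusted p = 0.0078), at 6 h (-0.68 ± 0.054, adjusted p = 3.23e-14) and at 6 h against 2 h (-0.49 ± 0.054, adjusted p = 1.34e-09). The 2 h call was lost without DMSO replicate 1 (-0.10) or 2 h replicate 2 (-0.18), whereas the 6 h call held under every alternative tried.

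Its relatives had smaller log2 changes. EIF4G2, which lacks the site for the cap-binding protein, fell by 0.18 at 6 h on the log2 scale (adjusted p = 0.00211, lost without 6 h replicate 2 at -0.16), and EIF4G3 was not called (-0.16). Within a library the ratio of EIF4G2 to EIF4G1 in counts per exon length does not depend on the scaling between libraries. It was 1.15 and 1.41 in DMSO, 1.43 and 1.49 at 2 h and 1.82 and 1.76 at 6 h, and the 6 h libraries lay above the other 4.

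EIF4E, whose protein binds the cap, had 78.2 and 92.3 CPM in DMSO, 93.8 and 97.4 at 2 h and 72.4 and 77.2 at 6 h. It was not called against DMSO at either time (0.16 at 2 h and -0.19 at 6 h, adjusted p = 0.205 and 0.084), but it was lower at 6 h than at 2 h (-0.35 ± 0.087, adjusted p = 0.00161; -0.31 and lost without 6 h replicate 1). EIF4E2 encodes a cap-binding protein that does not join eIF4F. It had 76.6 and 71.5 CPM in DMSO, 65.1 and 61.2 at 2 h and 65.5 and 60 at 6 h, and its fall at 6 h (-0.24, adjusted p = 0.0345) was lost under 10 of 16 alternatives, which included 5 of the 6 that leave out a library. EIF4EBP1 and EIF4EBP2 encode repressors that hold EIF4E until mTORC1 phosphorylates them. EIF4EBP1 had 139 and 105 CPM in DMSO, 116 and 107 at 2 h and 77.3 and 80.2 at 6 h, and fell at 6 h (-0.62 ± 0.09, adjusted p = 2.2e-07). The DMSO libraries were far apart for this gene, but both exceeded both 6 h libraries, and without DMSO replicate 1 the change was -0.41. EIF4EBP2 had 223 and 226 CPM in DMSO, 217 and 200 at 2 h and 227 and 211 at 6 h, and was not called (-0.04, adjusted p = 0.716). The ratio of EIF4EBP2 to EIF4EBP1, per exon length, was 0.189 and 0.254 in DMSO, 0.22 and 0.221 at 2 h and 0.346 and 0.31 at 6 h.

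The helicase subunits could be compared only in part. EIF4A2, the second form of the helicase, had 398 and 447 CPM in DMSO, 492 and 475 at 2 h and 569 and 555 at 6 h. It was higher at 2 h (0.19 ± 0.058, adjusted p = 0.0158), at 6 h (0.41 ± 0.058, adjusted p = 1.57e-07) and at 6 h against 2 h (0.22 ± 0.058, adjusted p = 0.00392). It was the factor gene with the largest rise at 6 h, and the 3 groups did not overlap. The 2 h call was lost without DMSO replicate 1 (0.11), 2 h replicate 1 (0.17) or 2 h replicate 2 (0.22), and the 6 h call against DMSO under none of the alternatives. The call of 6 h against 2 h was lost without 2 h replicate 2 (0.19) or 6 h replicate 1 (0.20). EIF4A2 also hosts 5 annotated snoRNA genes. EIF4A1 had 2.16 and 4.01 CPM in DMSO, 2.73 and 1.66 at 2 h and 1.59 and 1.27 at 6 h, on a part of its exons only. Its log2 change at 6 h (-1.11 ± 0.429, adjusted p = 0.0373) was not called in DESeq2 or limma, nor without DMSO replicate 2 (-0.59), 6 h replicate 1 (-1.28) or 6 h replicate 2 (-0.96). The ratio of EIF4A2 to EIF4A1 is therefore not interpreted. Of the helicase cofactors, EIF4H fell at 6 h (-0.30 ± 0.057, adjusted p = 4.24e-05), and EIF4B fell by less (-0.15 ± 0.054, adjusted p = 0.0243), a call lost without either 2 h library (-0.15) or either 6 h library (-0.12 and -0.18).

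**Figure D3:**
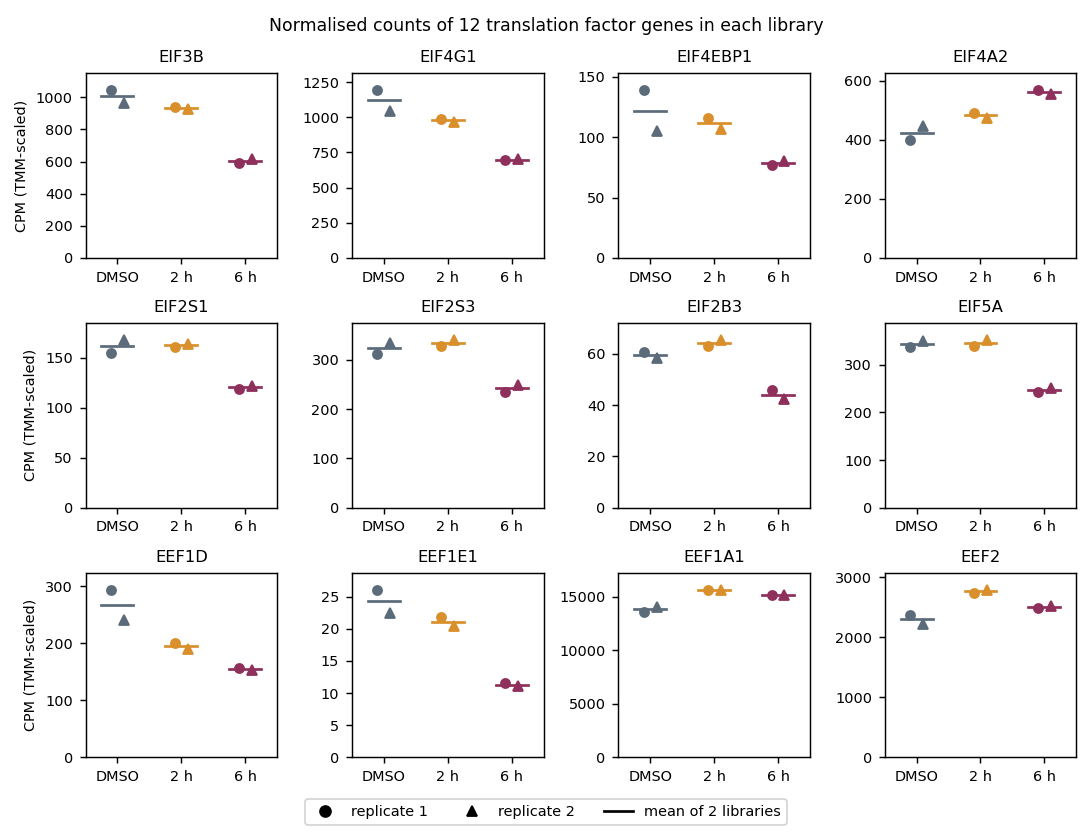
Normalised counts (CPM) of 12 factor genes in each of the 6 libraries, for DMSO, WNK463 2 h and WNK463 6 h; circles are replicate 1, triangles replicate 2 and lines the mean of 2. The 6 h libraries are the lowest in EIF3B, EIF4G1, EIF4EBP1, EIF2S1, EIF2S3, EIF2B3, EIF5A, EEF1D and EEF1E1, and the highest in EIF4A2, while in EEF1A1 and EEF2 the 2 h libraries are highest.

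Of the 4 genes named eIF5 or eIF6, EIF5A and EIF5B were lower at 6 h than in DMSO and not called at 2 h. EIF5A, the hypusine-bearing factor that helps the ribosome through difficult peptide bonds, had 337 and 349 CPM in DMSO, 340 and 352 at 2 h and 243 and 251 at 6 h (6 h against DMSO, -0.48 ± 0.061, adjusted p = 1.37e-08). EIF5B, the GTPase that joins the ribosomal subunits, had 262 and 297 CPM in DMSO, 287 and 281 at 2 h and 197 and 208 at 6 h (-0.46 ± 0.066, adjusted p = 1.37e-07). At 2 h their log2 changes were 0.01 and 0.02. EIF5, which triggers GTP hydrolysis by eIF2, had 665 and 721 CPM in DMSO, 592 and 608 at 2 h and 683 and 659 at 6 h. It was lower at 2 h than in DMSO (-0.21 ± 0.055, adjusted p = 0.00507, lost without 2 h replicate 1 at -0.19) and higher at 6 h than at 2 h (0.16 ± 0.055, adjusted p = 0.0243), with 6 h and DMSO not called apart (-0.05). The rise between 2 h and 6 h was lost under 5 of 16 alternatives. EIF6, which keeps the large subunit free, was not called in any comparison (-0.02, -0.06 and -0.05 for 2 h against DMSO, 6 h against DMSO and 6 h against 2 h), and its DMSO libraries (71.3 and 51.4 CPM) spanned all its other libraries.

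Of the 6 elongation factor genes tested, 2 were higher and 3 lower at 6 h than in DMSO. EEF1A1 had 13598 and 14085 CPM in DMSO, 15674 and 15669 at 2 h and 15138 and 15176 at 6 h. It was higher at 2 h (0.18 ± 0.033, adjusted p = 6e-05) and at 6 h (0.13 ± 0.033, adjusted p = 0.00125), under every alternative tried. EEF2 had 2375 and 2223 CPM in DMSO, 2744 and 2795 at 2 h and 2484 and 2523 at 6 h. Its rise at 2 h (0.27 ± 0.044, adjusted p = 1.01e-05) also held throughout. At 6 h it stood 0.12 above DMSO (adjusted p = 0.025), a call lost without any 1 of the 4 WNK463 libraries (0.11 to 0.14). EEF2K, the kinase that inhibits EEF2, had 99.4 and 101 CPM in DMSO, 90.3 and 85.9 at 2 h and 80.4 and 85.4 at 6 h, and fell at 6 h (-0.27 ± 0.082, adjusted p = 0.0071, lost without 6 h replicate 1 at -0.23). The ratio of EEF2 to EEF2K, per exon length, was 47.7 and 44.1 in DMSO, 60.7 and 65 at 2 h and 61.7 and 59 at 6 h, so the 4 WNK463 libraries lay above both DMSO libraries.

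EEF1D, the delta subunit of the exchange factor, had 294 and 241 CPM in DMSO, 201 and 190 at 2 h and 157 and 154 at 6 h. It was lower at 2 h (-0.45 ± 0.072, adjusted p = 6.18e-06) and lower again at 6 h (-0.78 ± 0.073, adjusted p = 3.71e-12; 6 h against 2 h, -0.33 ± 0.073). Without DMSO replicate 1 the changes were -0.30 at 2 h and -0.63 at 6 h. All 3 calls held under every alternative, and the antisense overlap named above applies to them. EEF1B2 was not called against DMSO (0.09 at 2 h and -0.07 at 6 h). EEF1E1 carries an elongation factor name, but its protein is known as a scaffold part of the complex of aminoacyl-tRNA synthetases. It had 26.1 and 22.5 CPM in DMSO, 21.8 and 20.4 at 2 h and 11.5 and 11.1 at 6 h. Apart from EIF4A1 this was the largest fall among the factor genes, -1.10 ± 0.147 at 6 h (adjusted p = 3.56e-08) and -0.90 ± 0.147 at 6 h against 2 h (adjusted p = 5.04e-06). EEF1E1 had 218 to 479 counts a library, and it shares 18.8% of its exon length with EEF1E1-BLOC1S5 on the same strand.

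EEF1A1, EEF2 and several other factor genes are textbook members of the terminal oligopyrimidine (TOP) class. Such mRNAs begin with a C and a run of pyrimidines, and their translation depends on mTORC1 through the RNA-binding protein LARP1. A list of 9 such factors was used (EEF1A1, EEF1B2, EEF1D, EEF1G, EEF2, EIF3E, EIF3F, EIF3H and EIF4B), of which 8 were tested. At 2 h 3 of the 8 were higher and 1 lower (median log2 change 0.13), against 2 higher and 2 lower of the other 38 (median -0.03). At 6 h 2 were higher and 2 lower (median -0.03), against 2 higher and 25 lower of the other 38 (median -0.28). The 25 include the poorly measured EIF3C and EIF4A1. The difference between the sets was not tested. Between 6 h and 2 h, 5 of the 8 TOP genes were lower and 0 higher (median -0.15), against 24 lower and 2 higher of the others (median -0.30). Of all tested genes, 8.32% were lower at 2 h, 18.6% at 6 h and 13.1% at 6 h against 2 h. The shares called higher were 8.68%, 18% and 11.1%. EEF1D was lower at both times (-0.78 at 6 h), and the other 7 tested genes of the list ranged from -0.15 (EIF4B) to 0.13 (EEF1A1) at 6 h. The list was drawn from the factor genes alone, so the medians above do not speak for TOP mRNAs in general. PABPC1, described below, is not one of the factor genes and was not on the list. It was lower than in DMSO at both times (-0.16 at 2 h and -0.50 at 6 h).

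**Figure D4:**
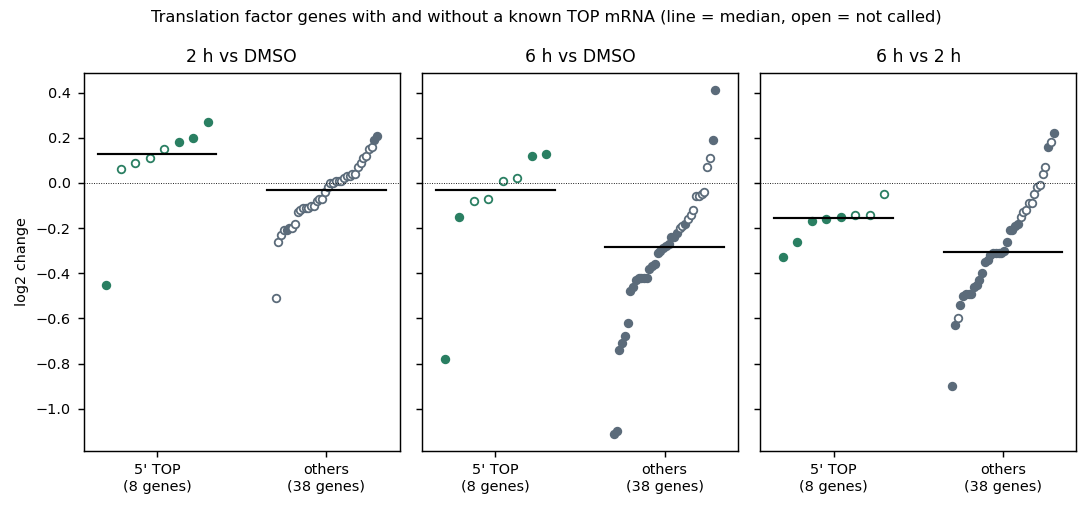
Log2 changes of 8 TOP factor genes (green) and 38 other factor genes (grey) in 3 comparisons; each symbol is a gene, filled where its adjusted p is under 0.05, and lines are medians. In the 6 h against DMSO panel the medians are -0.03 and -0.28, with EEF1D at -0.78 the lowest TOP gene.

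The first bases of these transcripts are shown because the TOP class is defined by them. Sequences are from RefSeq on GRCh38.p14, 10 bases before and 20 bases after an annotated start, on the strand of the gene. Capitals mark a C followed by at least 4 further C or T that begins within 5 bases of the start, searched on that strand only. The first 5 lines are TOP genes, the next 2 have such a run but are not on the list, and the last 2 have none.
EEF1A1 (chr6:73521013-73521042, minus): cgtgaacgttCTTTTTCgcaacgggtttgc
EEF2 (chr19:3985444-3985473, minus): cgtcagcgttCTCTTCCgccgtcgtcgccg
EEF1B2 (chr2:206159885-206159914, plus): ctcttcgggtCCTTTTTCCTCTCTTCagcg
EIF4B (chr12:53006446-53006475, plus): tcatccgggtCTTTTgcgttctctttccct
EIF3F (chr11:7987327-7987356, plus): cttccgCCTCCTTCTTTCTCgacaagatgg
EIF2S3 (chrX:24054946-24054975, plus): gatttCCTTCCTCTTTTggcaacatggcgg
EIF4A2 (chr3:186783567-186783596, plus): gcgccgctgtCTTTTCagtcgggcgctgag
EIF3B (chr7:2354817-2354846, plus): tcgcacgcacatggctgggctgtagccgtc
EEF1E1 (chr6:8102529-8102558, minus): tgcaggtctcgcgtctgccaggagctacgg
The RefSeq table matched 39 of the 47 factor genes with 53 annotated starts. A run was found at 21 of these starts (39.6%), against 21.1% of all 35116 starts in the table. That table was not limited to the genes tested here, and the shares were not matched for level. Among the TOP genes a run was found in 5 of the 6 that matched. The 21 genes with a run at any start gave 3 higher and 10 lower at 6 h (median -0.12). Of the 18 without one 17 were tested, with 0 higher and 13 lower (median -0.31). The 10 include EIF3C and the 13 include EIF4A1, both poorly measured. Over all tested genes, 18% were higher and 18.6% lower. EIF2S3 fell at 6 h and EIF4A2 rose, and both carry a run. Whether a run bears on these changes was not tested.

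The hexamer CACGTG, which reads the same on both strands, is the E-box bound by MYC and MAX and by other factors of their class. Between 250 bases before and 50 bases after a start, it was found at 8 of the 53 starts (15.1%), 1 for each of 8 genes. The share was 7.26% over all starts, and these shares were not matched for level either. Of these 8 genes, 5 were lower and 0 higher at 6 h (median -0.23). Of the 30 tested genes without the hexamer, 18 were lower and 3 higher (median -0.24). The 18 include EIF3C and EIF4A1. Over all tested genes, 18.6% were lower and 18% higher. EIF4G1 and EIF4E each have 2 copies before a start, and the 250 bases before it are printed with the copies in capitals.
EIF4G1 (chr3:184314356-184314605, plus): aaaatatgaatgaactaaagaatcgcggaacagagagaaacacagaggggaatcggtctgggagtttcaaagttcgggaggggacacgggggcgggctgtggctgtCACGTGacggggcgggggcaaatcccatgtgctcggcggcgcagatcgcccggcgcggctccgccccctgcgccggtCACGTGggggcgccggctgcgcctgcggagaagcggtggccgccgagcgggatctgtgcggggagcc
EIF4E (chr4:98929134-98929383, minus): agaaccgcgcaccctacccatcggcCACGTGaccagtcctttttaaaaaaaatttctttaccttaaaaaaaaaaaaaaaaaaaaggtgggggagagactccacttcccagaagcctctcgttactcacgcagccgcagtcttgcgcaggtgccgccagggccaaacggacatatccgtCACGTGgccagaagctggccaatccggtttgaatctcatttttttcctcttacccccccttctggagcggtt
Of these 2 genes, EIF4G1 was called lower at 6 h than in DMSO (-0.68). EIF4E was not called in that comparison (-0.19), but it was lower at 6 h than at 2 h (-0.35). Neither EIF3B nor EEF1E1 has the hexamer in the window. Whether the hexamer bears on any of these changes was not tested.

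Among 55 other genes of translation, in 8 lists, 54 were tested: 19 were lower and 7 higher at 6 h than in DMSO (median -0.18), where 18.6% of all tested genes were lower and 18% higher. At 2 h 7 were lower and 3 higher, close to the 17% of all genes called at that time. At 6 h against 2 h 16 were lower and 1 higher, where 13.1% of all genes were lower and 11.1% higher. The lowest median of the 8 lists was that of enzymes that modify the factors themselves. Of 9 genes for hypusine on EIF5A and diphthamide on EEF2, 6 were lower at 6 h and 0 higher (median -0.59). DPH2, which acts in the first step of diphthamide synthesis, had 135 and 128 CPM in DMSO, 113 and 116 at 2 h and 64.9 and 65.3 at 6 h (-1.01 ± 0.08, adjusted p = 2.42e-14). DPH1, its partner, fell at 6 h by 0.94 on the log2 scale and DPH7 by 0.84, with 34.9% of the exon length of DPH1 shared with other genes. DHPS, the enzyme of the first hypusine step, had few counts (42.2% of its exons shared, 0.711 to 1.18 CPM).

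Of the 6 eIF2 kinases and phosphatase subunits, 2 were higher and 2 lower at 6 h. Over all tested genes, 18% were higher and 18.6% lower. EIF2AK3, the kinase PERK of the endoplasmic reticulum, had 19.2 and 21 CPM in DMSO, 28.7 and 32.3 at 2 h and 34.4 and 33.8 at 6 h (6 h against DMSO, 0.76 ± 0.124, adjusted p = 2.37e-06). PPP1R15A, which directs a phosphatase to eIF2, had 18.8 and 12.6 CPM in DMSO, 33.4 and 34.5 at 2 h and 28 and 39.7 at 6 h (1.12 ± 0.148, adjusted p = 3.48e-08). EIF2AK2, the kinase PKR that is activated by double-stranded RNA, fell (-0.57 at 6 h, adjusted p = 3.91e-07). EIF2AK1 and EIF2AK4 were not called at 6 h (0.13 and -0.10).

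Of 9 regulators at the cap, 2 were lower and 2 higher at 6 h, near the 18.6% and 18% of all genes called in these directions. LARP1 fell (-0.49 ± 0.055, adjusted p = 4.63e-10), as did the helicase inhibitor gene PDCD4 (-0.44), and MKNK2, which encodes a kinase of EIF4E, rose (0.37 ± 0.073, adjusted p = 6.83e-05). The poly(A)-binding protein genes PABPC1 (-0.50 ± 0.042, adjusted p = 1.66e-13) and PABPC4 (-0.39) fell at 6 h, while their partners PAIP1 (0.40) and PAIP2 (0.31) rose. PABPC1 had 3666 and 3795 CPM in DMSO, 3324 and 3360 at 2 h and 2653 and 2634 at 6 h, so the groups did not overlap.

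Of 4 reinitiation and recycling genes 3 were lower at 6 h than in DMSO, and of 5 termination and rescue genes 2 were lower, with 0 called higher in either list by edgeR. DHX29 (-0.04), GSPT2 (-0.02), HBS1L (0.18) and PELO (-0.08) were not called. ABCE1, which splits ribosomes after termination, had 302 and 340 CPM in DMSO, 298 and 305 at 2 h and 210 in each library at 6 h (-0.61 ± 0.064, adjusted p = 8.1e-11). DENR and MCTS1, partners in reinitiation, fell (-0.37 and -0.39), as did the release factor genes ETF1 (-0.33) and GSPT1 (-0.34). Of 9 mitochondrial translation factors 2 were lower at 6 h, MTIF2 (-0.45) and GFM1 (-0.27), near the 18.6% of all genes called lower, and 7 were not called. Among these 7, TSFM was poorly measured, with 71.2% of its exon length shared and 7 to 42 counts a library. Of 8 close paralogs of the factors 1, EIF1B, was called, and it was higher (0.27, adjusted p = 0.0479). EIF3CL, EEF1A2, EIF5AL1 and EIF5A2 had at most 4.91 CPM in any library and SEs of 0.3 to 0.732, so not called does not mean unchanged.

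**Figure D5:**
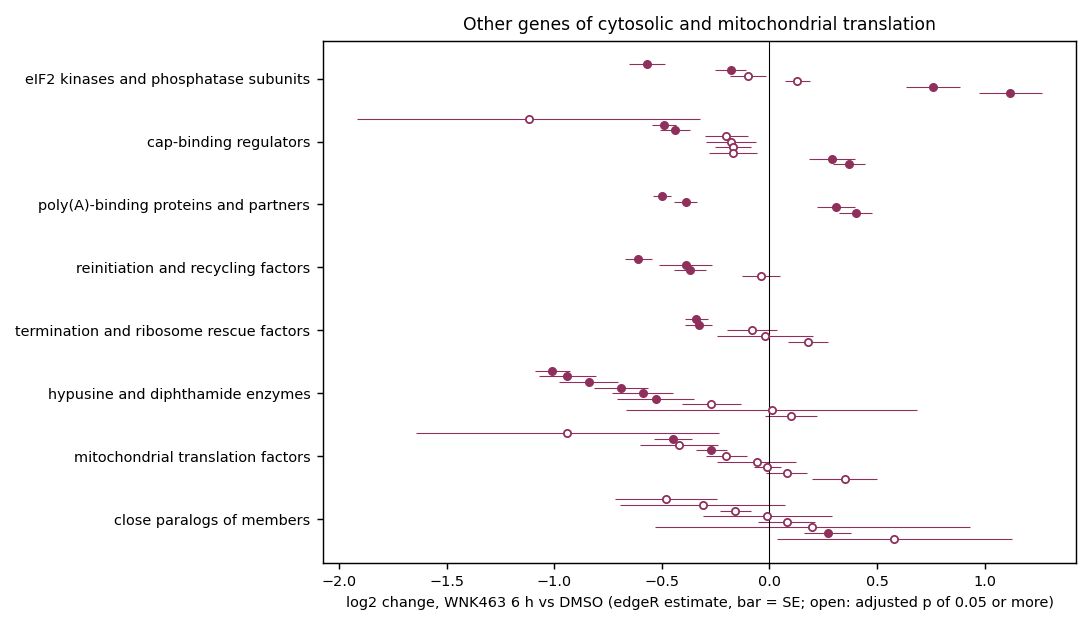
Log2 change at 6 h against DMSO of 54 other translation genes in 8 lists, with the SE of the edgeR estimate; filled symbols have an adjusted p under 0.05. DPH2 at -1.01 is the lowest filled symbol and PPP1R15A at 1.12 the highest; the open symbol at -1.12 is EIF4EBP3, at no more than 1.16 CPM in any library.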

How the data were processed

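Per the file headers, the authors deposited raw counts of fragments for each gene of GENCODE 34, from featureCounts 2.0.0, without regard to strand, from pairs with both ends mapped and a mapping quality of at least 20. Trimmomatic, STAR and hg38 are named in the submitters' processing notes (without versions). The exon length of each gene (unit: other) is also as deposited by the authors. The lines of ANK2, which was split in the table, were put back together.

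Symbols came from an Ensembl identifier table. Counts were tested in R 4.3.3 with edgeR 4.0.16 (filterByExpr, TMM, quasi-likelihood test, 1 mean per group over all 6 libraries, Benjamini-Hochberg over 15548 genes). A gene was called at an adjusted p under 0.05. SEs derive from the F statistic. The spread of a gene rested on 42.8 prior and 3 residual degrees of freedom. TPM, exon overlaps and promoter motifs were computed from deposited lengths, deposited coordinates and RefSeq. The test was checked on simulated data.

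The members and lists were chosen with earlier results of these data known. Values in every library are given for members called against DMSO with an absolute log2 change of at least 0.5, up to 2 called members of smallest adjusted p at 6 h per complex, EIF4E, EIF4EBP1, EIF4EBP2, EIF4G1, EIF4A1, EIF4A2, EIF2S1, EIF2B5, EEF1A1, EEF2 and EEF2K. Up to 3 called genes of each other list are named, by adjusted p at 6 h. Other genes were named after their values were seen. Alternatives used DESeq2 1.42.0, limma 3.58.1, other scalings and filters, a replicate block and leaving out each library. Figures used Python 3.11.15 and matplotlib 3.10.9.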

Additional observations from a re-analysis of the deposited data

Results flagged for a closer look

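The 6 h and 2 h libraries of WNK463 differed, by the direct test in edgeR, for 29 factor genes that were lower at 6 h and 2 that were higher (EIF4A2 and EIF5). With no DMSO cells matched in time, time in culture and time in WNK463 cannot be told apart in these differences. The 3 called genes with a log2 difference of more than 0.5 in size (EIF4EBP1 lay just under it) were EEF1E1 (-0.90), EIF3B (-0.63) and EIF2B3 (-0.54), each with both 6 h libraries below both 2 h libraries. These 3 calls held under all 16 alternatives. No group held enough libraries to look for a library far from the others.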

How the results depend on the processing

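Of the 31 factor genes called at 6 h against DMSO, 18 kept their call under all 16 alternatives. So did 3 of 8 at 2 h (EEF1A1, EEF1D and EEF2) and 17 of 31 at 6 h against 2 h, and no call changed direction. Leaving out 1 library moved the factor genes called at 2 h to between 2 and 10 higher and between 2 and 10 lower, both highest without DMSO replicate 2. At 6 h it gave 2 to 5 higher and 19 to 28 lower, and at 6 h against 2 h 0 to 2 higher and 20 to 32 lower. All genes called moved to between 1527 and 2911 at 2 h (776 to 1589 higher, 751 to 1322 lower). At 6 h against 2 h they moved to between 2288 and 4661 (1022 to 2171 higher, 1262 to 2557 lower). Under the alternatives other than leaving out 1 library, 3 to 4 factor genes were lower at 2 h and 23 to 27 at 6 h. At 6 h against 2 h, 21 to 32 were lower. Over all genes these lower calls were 756 to 1561, 2085 to 2912 and 1446 to 2552, in that order. At an adjusted p under 0.01, 2 factor genes were higher at 2 h, 2 at 6 h and 1 at 6 h against 2 h. At that threshold 1560 genes were called at 2 h (804 higher, 756 lower) and 1103 were higher at 6 h against 2 h. With library size alone 3 factor genes were higher at 2 h. The cause was not tested. With a replicate block 5 factor genes were higher and 3 lower at 2 h, 4 and 27 at 6 h, and 2 and 28 at 6 h against 2 h. The labels tie the numbers to no batch. Over all tested genes, the log2 differences between replicates 1 and 2 were near uncorrelated between groups (correlations -0.0054, -0.0381 and -0.0205). Genes with few counts weigh as much as others in these correlations, so they cannot decide whether same-numbered libraries share a batch. The choice to leave out EIF3C, EIF4A1 and EEF1G was made after seeing the data.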
